A study of Rattus norvegicus with 8 samples.

Results

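The cytochrome P450 family of the rat kidney is described here from 63 probe sets of 56 genes, among 31042 probe sets tested. The members are all probe sets whose platform annotation gives 1 gene symbol of the P450 pattern, Cyp followed by a family number and a subfamily letter, without the vitamin D hydroxylases Cyp24a1 and Cyp27b1 and without Cyp51. By name, 3 probe sets were left out for this reason. A further 7 probe sets that carry several symbols with a P450 among them cannot be tied to 1 gene and were also left out. No filter on low values was applied, so all 63 members were tested. Removing the dimmest 25% of probe sets on the array left 40 of them. Every Cyp19a1 probe set and those of Cyp2b21, Cyp2c13, Cyp2c22, Cyp17a1, Cyp3a2, Cyp3a9 and Cyp1a2 were among the members removed. Their values below are therefore those of dim probe sets.

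Kidney RNA was measured on 8 Affymetrix rat expression arrays, each hybridized with the RNA of 1 male Wistar rat, aged 8 weeks per the labels. Of these rats, 4 received a control diet based on AIN-93G with 0.3% phosphorus and 4 received a high-phosphorus (HP) diet with 1.2% phosphorus, for 24 days. In the HP diet KH2PO4 took the place of corn starch, so potassium was added together with phosphorus. The authors picked the 4 rats of each diet as average animals of a larger group, so the SDs given here are those of picked rats.

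P450 enzymes are haem proteins that use molecular oxygen and electrons from a reductase to oxidize drugs, steroids, sterols, retinoids, fatty acids and eicosanoids. In the kidney, many of these enzymes lie in the proximal tubule, where enzymes of the Cyp4a subfamily convert arachidonic acid to a vasoactive hydroxy acid and those of the Cyp2c and Cyp2j subfamilies convert it to epoxides. Several members, among them Cyp2c11, Cyp2c12 and Cyp2c13, are known in rat liver for expression that differs between the sexes. Cyp1a1, Cyp1a2 and Cyp1b1 are induced through the aryl hydrocarbon (Ah) receptor.

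Deposited values are logarithms, taken as log2 since the base is not given, from a summary method (DFW) that draws the arrays of a probe set together according to its spread. A difference between diets is therefore no fold change and sizes are not comparable between probe sets. Each difference is given as HP minus control in multiples of the pooled SD within groups of that probe set (SDs below). The tissue label was checked with 15 proximal tubule markers, all of which had deposited means above the 90th percentile of all probe sets, at 9.37. None of 4 measured adrenal cortex markers and none of 5 hepatocyte markers lay above it.

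Only 1 of the 63 P450 probe sets passed limma with an adjusted p under 0.05, that of Cyp1b1, which was higher on the HP diet. Over all probe sets tested, 2.95% were called higher and 1.13% lower. No P450 probe set was called lower, and 62 did not pass in either direction. After quantile normalization of the deposited values, 1 P450 probe set was called higher and 18 lower, with 316 and 7712 over all probe sets. That step uses ranks only. A probe set that kept its rank on every array came out equal on both diets, and others moved by the step between ranks. Signs and equal values after it therefore cannot decide whether differences as small as those deposited are present. With each array centred on its median instead, 97.3% of all differences were negative, so the signs given here hold for the deposited values and not under that centring. At an unadjusted p under 0.05, 2 P450 probe sets were higher and 9 lower, where the shares over all probe sets were 9.53% and 9.45%. The HP arrays all exceeded the control arrays in 1 P450 probe set and all fell short of them in 8, against 7.09% and 5.81% of all probe sets. Of the 63 differences as deposited, 36 were negative (57.1%), close to the 57.7% among all probe sets tested. Their median was -0.231 SDs, with -0.206 SDs over all probe sets, and their median size without the sign was 0.703 SDs, with 0.789 over all.

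**Figure D1:**
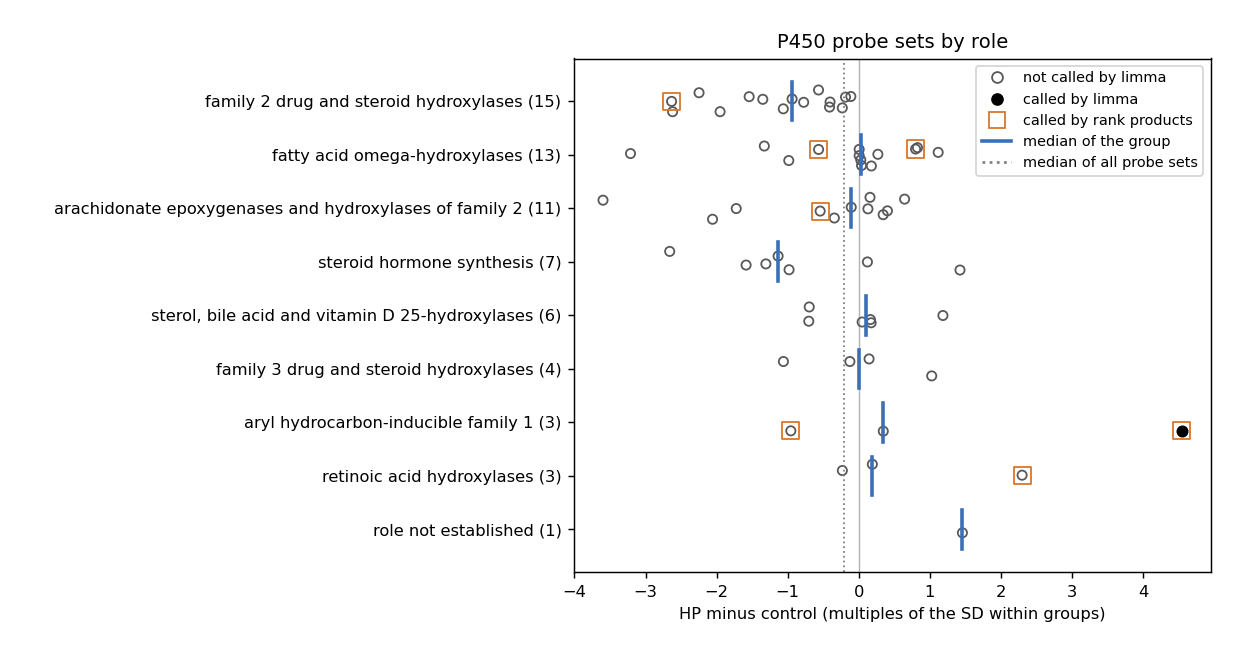
Difference between the diets for the 63 P450 probe sets (horizontal axis, HP minus control in multiples of the SD within groups), in rows by the role of the enzyme with the number of probe sets in brackets; circles are probe sets, filled where limma called them, orange squares mark rank product calls, blue bars are medians and the dotted line is the median of all probe sets tested. All 15 drug and steroid hydroxylases of family 2 lie left of 0 (13 after centring on the median deviation and 10 after quantile normalization, the others then being above 0 or equal on both diets), and Cyp1b1 at 4.54 SDs stands to the right of every other P450 probe set.

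Cyp1b1, which hydroxylates oestrogens and polycyclic hydrocarbons and is mostly expressed outside the liver, was the member past the threshold. On the control arrays 1 to 4 its probe set 1368990_at lay 0.485, 0.335, 0.195 and -1.01 SDs from the control mean, and on the HP arrays 1 to 4 at 3.99, 6.25, 3.38 and 4.54 SDs. All 4 HP arrays were above all 4 control arrays, and the lowest HP array was well clear of the highest control array. The difference in deposited log2 units was 0.000452 ± 7.03e-05 (SE, n = 4 against 4), or 4.54 SDs with a 95% interval of 2.96 to 6.13. The adjusted p by limma was 0.0209, and the exact two-sided permutation p was 0.0286, the smallest that 4 against 4 arrays allow. The call was lost in 4 of the 8 fits that left out 1 array, without control array 1 (adjusted p = 0.0529), control array 2 (0.0569), control array 3 (0.0646) or HP array 1 (0.0555), and also in a fit blocked on replicate number (0.0765) and with each array centred on its median (0.975), although the difference was positive each time.

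In bulk kidney RNA a change in the number of cells of a type and a change in RNA per cell cannot be told apart. Markers of some other cells moved along with Cyp1b1. Of 10 macrophage markers 8 were called higher by limma and none lower, with a median of 4.19 SDs (3 to 9 called when 1 array was left out), and the mean level of the list ran from 8.2598 to 8.2601 on control arrays and from 8.2611 to 8.2622 on HP arrays. Of 7 fibroblast markers, among them Col3a1 (8.00 SDs) and Dcn (6.84 SDs), 5 were called higher, with list means of 9.0779 to 9.0782 on control and 9.0792 to 9.0795 on HP arrays. Of 7 measured markers of tubular injury, 5 were called higher, with a median of 4.54 SDs. Over all probe sets tested limma called 2.95% higher. It called none of 4 endothelial (median 0.187 SDs), 2 thick ascending limb (0.155), 5 distal tubule and collecting duct (0.324) and 3 podocyte markers (-0.655). Of 5 hepatocyte markers it called Fgb higher (4.26 SDs), with a list median of -0.517 SDs. With the replicate block, the calls among macrophage, fibroblast and injury markers were 1, 3 and 2, and with centring on the array median 3, 1 and 3. The part of these cells in the Cyp1b1 result was not tested.

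The other members of family 1 did not pass limma. Cyp1a1, the Ah receptor's best-known target, lay at 0.20, -0.795, -1.17 and 1.77 SDs on the control arrays and at -1.58, -1.20, -0.613 and -0.432 SDs on the HP arrays. HP arrays 1 and 2 were just below the lowest control array and the other HP arrays lay within the control range. Its difference was -0.956 SDs with an interval of -2.54 to 0.629 (adjusted p = 0.512), and in deposited units it went from -0.000202 to -7.77e-05 without control array 4. Cyp1a2, an aromatic amine oxidase, differed by 0.345 SDs, with an interval of -1.28 to 1.97 (adjusted p = 0.856). Of 5 measured Ah receptor targets outside the family none was called by limma or rank products. Those with the smallest p were Nfe2l2 (1.17 SDs), Nqo1 (1.16 SDs) and Aldh3a1 (-0.306 SDs). Ahr itself differed by -0.560 SDs (adjusted p = 0.732).

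The region before the start of Cyp1b1 is shown beside that of Cyp1a2 because these genes share a receptor and differed in outcome. Cyp1a1 shares that receptor too, but no promoter could be matched to it, so it is missing from the comparison. The sequences are the 250 bases before the annotated start in RefSeq (build GRCr8), 5′ to 3′ on the gene's strand, for Cyp1b1 at chr6:21094315-21094564 on the plus strand and for Cyp1a2 at chr8:66978150-66978399 on the minus strand. Capitals mark GCGTG, the core letters bound by the Ah receptor complex, found on either strand (CACGC where it is on the other strand).
Cyp1b1: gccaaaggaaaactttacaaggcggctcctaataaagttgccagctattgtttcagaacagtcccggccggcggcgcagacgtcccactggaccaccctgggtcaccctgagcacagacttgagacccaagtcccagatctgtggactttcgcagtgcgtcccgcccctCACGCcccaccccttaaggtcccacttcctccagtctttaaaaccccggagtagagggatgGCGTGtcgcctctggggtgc
Cyp1a2: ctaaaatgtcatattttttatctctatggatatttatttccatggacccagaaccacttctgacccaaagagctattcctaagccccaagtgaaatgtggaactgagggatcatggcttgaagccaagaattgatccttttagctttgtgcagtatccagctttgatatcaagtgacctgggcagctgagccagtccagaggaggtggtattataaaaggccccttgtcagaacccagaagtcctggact
Cyp1b1 held 2 matches and Cyp1a2 none. GCGTG was found in 10 of the 44 P450 promoters that could be matched (22.7%) and in 25.9% of all 33469 promoters of this length, so the motif was no more frequent in the family than elsewhere. A match is a run of letters and no measured binding site.

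The drug and steroid hydroxylases of family 2 (subfamilies Cyp2a, Cyp2b, Cyp2d, Cyp2e, Cyp2f, Cyp2g, Cyp2s and Cyp2t) were the class whose members lay on 1 side. None of the 15 probe sets was called by limma. All 15 differences were negative, with a median of -0.938 SDs and a range of -2.63 to -0.112, where 57.7% of all probe sets were negative. The count of negative differences was 13 after centring of each array on the median deviation from the probe set means, 10 after quantile normalization (the other 5 equal on both diets) and 12 to 15 when 1 array was left out, the lowest without HP array 1. In 4 of the 15 the HP arrays were all below the controls, against 5.81% of all probe sets. The same number had an unadjusted p under 0.05 by limma, where 9.45% of all probe sets were lower at that threshold. HP array 1 was the lowest of the 8 arrays in 15 of the 63 P450 probe sets and in 16.6% of all probe sets.

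**Figure D2:**
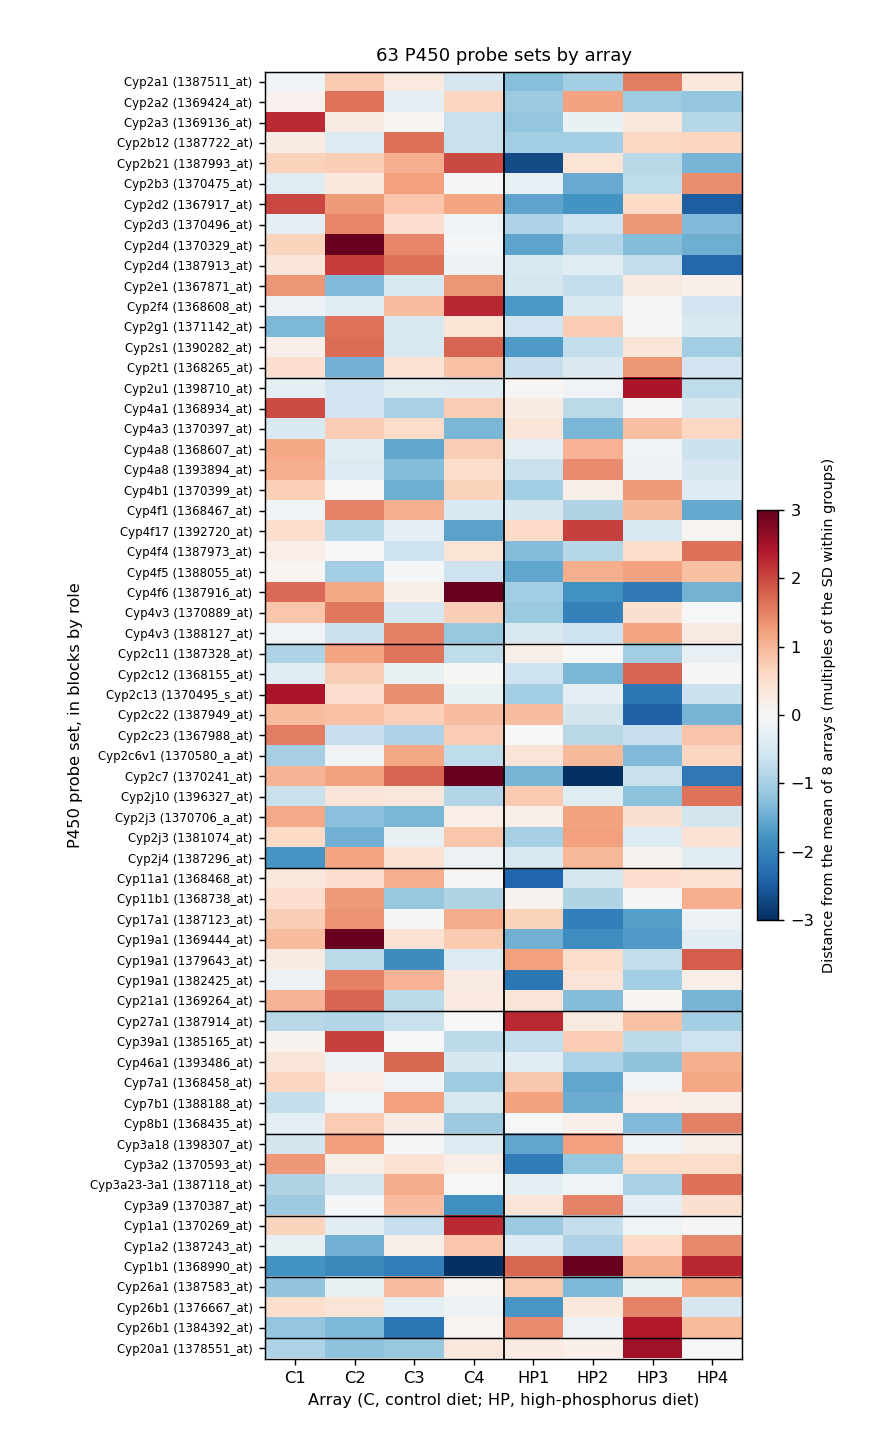
Distance of each array from the mean of the 8 arrays (colour, multiples of the SD within groups, with values beyond 3 shown at 3) for the 63 P450 probe sets in rows, in blocks by role, and the arrays in columns (C, control diet; HP, HP diet). In the block of 15 drug and steroid hydroxylases of family 2 at the top the blue cells lie mainly in the HP columns, and the Cyp1b1 row shows the opposite pattern.

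Within this class the Cyp2d probe sets had the most negative median among the subfamilies. The Cyp2d subfamily oxidizes many basic drugs, and its rat genes lie side by side on chromosome 7. Cyp2d2 (1367917_at) lay at 0.681, -0.0476, -0.489 and -0.144 SDs on the control arrays and at -2.90, -3.11, -0.730 and -3.80 SDs on the HP arrays. HP array 3 was close to the controls and the other 3 HP arrays were well below them. The difference was -2.63 SDs (interval -4.22 to -1.05), with an adjusted p of 0.0890 by limma and an exact permutation p of 0.0286. Without HP array 3 it was called lower, with an adjusted p of 0.0174, and the fits that left out another array gave up to 0.190.

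Cyp2d4 was measured by a pair of probe sets. The values of 1370329_at were -0.636, 1.85, 0.162 and -1.37 SDs on control arrays and -2.89, -2.19, -2.62 and -2.78 SDs on HP arrays. Those of 1387913_at were -0.606, 1.10, 0.668 and -1.16 SDs on control arrays and -1.44, -1.31, -1.73 and -3.33 SDs on HP arrays. In both, all HP arrays were below all control arrays, and control array 2 was the highest of the 8. The differences were -2.62 SDs (interval -4.21 to -1.03, adjusted p = 0.0901) and -1.95 SDs (-3.54 to -0.360, adjusted p = 0.179). Cyp2d3 differed by -0.775 SDs with an interval of -2.48 to 0.933, and its groups overlapped. The median of the 4 Cyp2d probe sets was -2.28 SDs and stayed between -2.50 and -2.01 when 1 array was left out. After quantile normalization 3 of the 4 were negative and the other was equal on both diets. Near-identical Cyp2d transcripts may share probes, so the 4 probe sets are not independent measurements.

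The 250 bases before the start of these neighbouring genes are shown because their probe sets had differences of the same sign (RefSeq, GRCr8, all on the minus strand, at chr7:115819282-115819531 for Cyp2d2, chr7:115802143-115802392 for Cyp2d3 and chr7:115771822-115772071 for Cyp2d4). Capitals mark a direct repeat of AGGNCA with 1 base between the copies, of the kind that Hnf4a and PPAR alpha with its partner bind, searched on both strands.
Cyp2d2: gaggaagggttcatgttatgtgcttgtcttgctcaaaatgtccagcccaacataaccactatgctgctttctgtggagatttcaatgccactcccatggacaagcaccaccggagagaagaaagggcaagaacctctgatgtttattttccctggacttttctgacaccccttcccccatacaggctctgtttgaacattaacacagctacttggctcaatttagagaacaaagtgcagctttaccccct
Cyp2d3: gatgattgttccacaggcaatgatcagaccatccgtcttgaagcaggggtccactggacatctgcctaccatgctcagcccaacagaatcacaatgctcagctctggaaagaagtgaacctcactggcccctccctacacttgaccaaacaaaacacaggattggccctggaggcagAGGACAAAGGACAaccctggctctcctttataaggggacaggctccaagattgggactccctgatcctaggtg
Cyp2d4: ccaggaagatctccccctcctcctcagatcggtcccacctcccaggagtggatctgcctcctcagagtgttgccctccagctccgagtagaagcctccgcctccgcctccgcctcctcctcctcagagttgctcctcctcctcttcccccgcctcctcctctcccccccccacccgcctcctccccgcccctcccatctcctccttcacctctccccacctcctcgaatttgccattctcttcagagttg
Only Cyp2d3 held a match to these letters, as did 0.368% of all promoters and no other of the 44 P450 promoters. The absence of the letters from the other windows says nothing about the factors. Hnf4a, the nuclear receptor that drives many hepatic and proximal tubule genes, differed by -2.67 SDs with an adjusted p of 0.0882.

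Cyp2b21, of a subfamily known for induction by phenobarbital, lay at -0.423, -0.378, -0.0446 and 0.846 SDs on control arrays and at -3.81, -0.710, -1.95 and -2.53 SDs on HP arrays. All HP arrays were below the controls, HP array 2 by little. The difference was -2.25 SDs (interval -3.83 to -0.660, adjusted p = 0.130). The remaining members of the class were at -1.54 SDs for Cyp2s1, -1.35 SDs for Cyp2f4 and between -1.06 and -0.112 SDs for the others, and each of their intervals spanned 0. Among these was Cyp2e1, the ethanol-oxidizing enzyme, at -0.412 SDs (interval -2.0 to 1.17). Cyp2s1, Cyp2f4, Cyp2g1, Cyp2t1 and the Cyp2a and Cyp2b genes form 1 chromosome 1 cluster of 10 genes with 10 negative differences and a median of -0.752 SDs, with no member called.

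Markers of the proximal tubule, where many P450 enzymes are expressed, were on the same side. Each was represented by its brightest probe set, and none of these 15 probe sets was called by limma. Of the 15 differences 13 were negative and the median was -1.40 SDs, with 57.7% negative and -0.206 SDs over all probe sets. Of these markers 4 were lower at an unadjusted p under 0.05 by limma, against 9.45% of all probe sets. After quantile normalization 2 were negative and the other 13 were equal on both diets, which shows only that ranks were kept. The list mean was 12.07491 to 12.07493 on control arrays and 12.07490 to 12.07491 on HP arrays. The lowest p values were those of the dicarboxylate transporter Slc13a3 (-3.04 SDs, adjusted p = 0.0604), the organic anion transporter Slc22a6 (-2.01 SDs) and Ggt1 (-1.69 SDs). The brightest probe set of the phosphate transporter Slc34a1 differed by -1.50 SDs (adjusted p = 0.308 by limma). The paper lists another Slc34a1 probe set as lower on the HP diet by rank products. It also reports a fall of this mRNA by in situ hybridization. The absence of calls therefore holds for the probe sets chosen and not for every probe set of these genes. The part of these markers in the values of the P450 members was not tested.

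**Figure D3:**
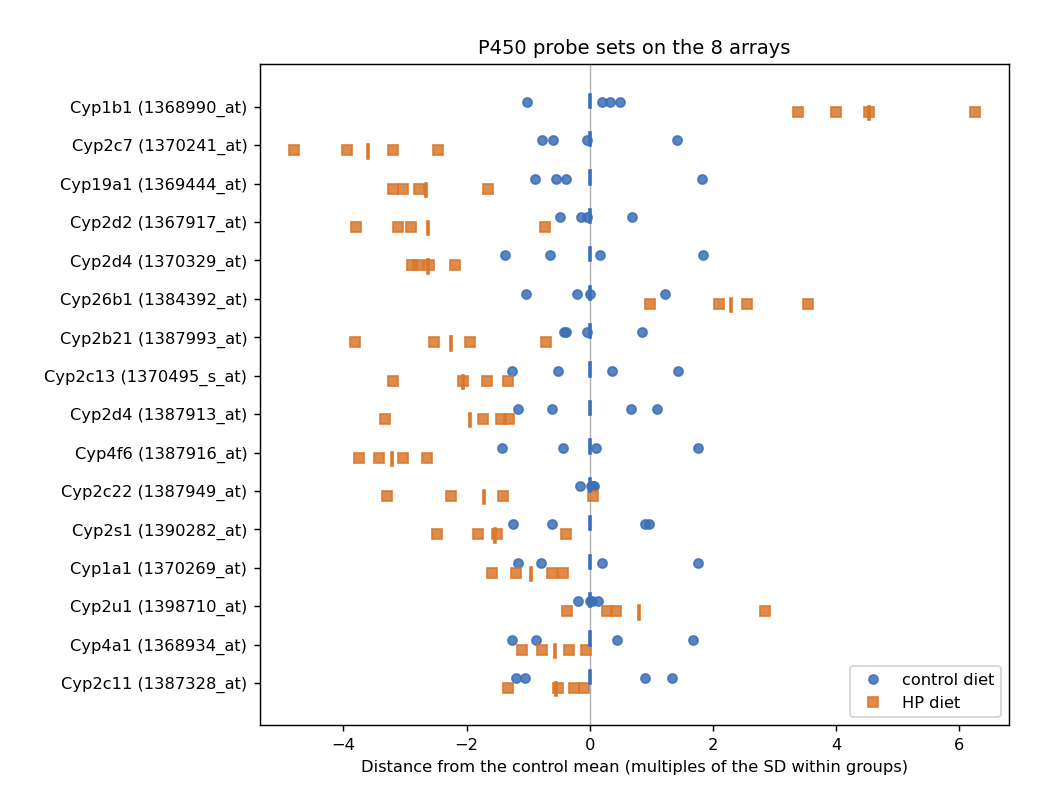
Distance of each array from the control mean (horizontal axis, multiples of the SD within groups) for 16 P450 probe sets, those called by either test and others with the smallest p by limma; blue circles are control arrays, orange squares HP arrays and short bars the means of 4. The groups are fully apart in Cyp1b1, Cyp2c7, Cyp19a1, Cyp2d2, both probe sets of Cyp2d4, Cyp2b21, Cyp2c13 and Cyp4f6, and they overlap in the others.

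Among the epoxygenases and hydroxylases of the Cyp2c and Cyp2j subfamilies, limma called none of 11 probe sets, 6 were negative and the median was -0.106 SDs. Of the 7 Cyp2c probe sets 6 were negative (median -0.543 SDs), but 4 after centring on the median deviation or quantile normalization. Of the 4 Cyp2j probe sets 0 were negative (median 0.281 SDs, range 0.129 to 0.645), but 2 after quantile normalization and 4 with centring on the array median. The difference between these subfamilies was not tested. Cyp2c7, a retinoic acid and testosterone hydroxylase of rat liver, was the P450 probe set just outside the threshold. It lay at -0.779, -0.594, -0.0425 and 1.42 SDs on control arrays and at -3.19, -4.80, -2.46 and -3.94 SDs on HP arrays. All HP arrays were clearly below all control arrays. The difference was -3.60 SDs (interval -5.48 to -1.72), with an adjusted p of 0.0601 by limma. It passed once the dimmest 25% of probe sets had been removed (0.0493) and with 1 probe set per gene (0.0397), both of which test fewer probe sets, and it missed the threshold in every fit without 1 array (0.0735 to 0.138).

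Cyp2c13, a male-specific steroid hydroxylase of rat liver, was at 1.43, -0.522, 0.356 and -1.26 SDs on control arrays and at -2.06, -1.32, -3.19 and -1.66 SDs on HP arrays. The groups were apart by a narrow margin, HP array 2 against control array 4. The difference was -2.06 SDs (interval -3.65 to -0.467, adjusted p = 0.160). For Cyp2c22 the control arrays lay within 0.152 SDs of their mean, while the HP arrays were at 0.0528, -1.41, -3.29 and -2.25 SDs. HP array 1 was thus among the controls and the other HP arrays were below them (difference -1.72 SDs, adjusted p = 0.238). Cyp2c23, the main renal epoxygenase of the rat, differed by -0.344 SDs with an interval of -2.88 to 2.20, too wide to tell a shift of 2 SDs in either direction.

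Cyp2c11, a male-specific testosterone hydroxylase and epoxygenase, had the largest spread between rats of all P450 probe sets, an SD of 0.0130. The control arrays were at -1.19, 0.903, 1.33 and -1.04 SDs and the HP arrays at -0.0849, -0.253, -1.33 and -0.508 SDs. The control arrays split into a higher and a lower pair, and all HP arrays but 1 lay between them. The difference was -0.543 SDs with an interval of -2.13 to 1.04 (adjusted p = 0.739). In deposited units it was -0.00708 and ran from -0.0122 without control array 1 to -0.0013 without control array 3, with -0.0116, -0.00316 and -0.00368 without control array 4, control array 2 and HP array 3.

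The omega-hydroxylases of fatty acids (families 4 and Cyp2u1), which act on arachidonic acid and other fatty acids, were centred near 0. Limma called none of 13 probe sets, 4 were negative and the median was 0.0281 SDs, with 4 to 8 negative when 1 array was left out and 12 with centring on the array median. Cyp4f6 was the exception with the groups apart, at 0.104, -0.436, -1.42 and 1.76 SDs on control arrays and -2.64, -3.42, -3.75 and -3.03 SDs on HP arrays. Its difference of -3.21 SDs had a wide interval, -5.95 to -0.476, and an adjusted p of 0.196. The SD of this probe set was the smallest in the family, 2.85e-07.

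The Cyp4a genes, the renal producers of the vasoconstrictor hydroxy acid and targets of PPAR alpha, were close to 0. Cyp4a1 was at 1.68, -0.868, -1.26 and 0.452 SDs on control arrays and -0.0654, -1.09, -0.329 and -0.775 SDs on HP arrays. The HP arrays lay within the range of the controls. The difference was -0.565 SDs (interval -2.15 to 1.02). In deposited units it was -0.000418, and it shrank to -3.96e-06 without control array 1 and was 0 after quantile normalization, while it was -0.000631 and -0.000729 without control array 2 or 3. Cyp4a3 differed by 0.269 SDs and the probe sets of Cyp4a8 by 0.0391 and 0.00555 SDs, with intervals of about 1.6 SDs to either side. Limma called none of 17 measured PPAR alpha targets outside the family, of which 10 were negative, and the one with the smallest p was Acadm (-2.59 SDs, adjusted p = 0.0946), followed by Decr1 (-1.46 SDs) and Eci1 (-1.29 SDs). Rank products, the second test described further on, called 2 of them higher, Pdk4 (0.838 SDs) and Angptl4 (0.895 SDs), and 1 lower, Eci1. Over all probe sets that test called 3.40% higher and 2.32% lower, and 57.7% of the differences tested by limma were negative. Ppara itself differed by -0.385 SDs.

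Cyp2u1, a fatty acid hydroxylase, was at 0.142, -0.183, 0.0318 and 0.00940 SDs on control arrays and at 0.429, 0.284, 2.85 and -0.363 SDs on HP arrays. HP array 3 alone stood out and the other HP arrays were near the controls (difference 0.799 SDs, interval -0.785 to 2.38). In deposited units the difference was 0.000697, and 0.000102 without HP array 3. Cyp4f17 (1.12 SDs), Cyp4v3 (1370889_at, -1.33 SDs and 1388127_at, 0.177 SDs) and the remaining members had intervals that spanned 0.

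Of the enzymes of steroid hormone synthesis, limma called none of 7 probe sets, 5 were negative and the median was -1.13 SDs, with 3 negative after quantile normalization. Cyp19a1, the aromatase that makes oestrogens, had 3 probe sets that disagreed. In 1369444_at the control arrays were at -0.377, 1.82, -0.891 and -0.550 SDs and the HP arrays at -2.77, -3.19, -3.04 and -1.65 SDs. The groups were apart, and the difference was -2.66 SDs (interval -4.25 to -1.06, adjusted p = 0.0884). The other probe sets, 1379643_at and 1382425_at, gave 1.42 SDs (-0.183 to 3.03) and -1.31 SDs (-2.90 to 0.289), so no direction can be given for the gene. Cyp17a1, the androgen-forming lyase, differed by -1.58 SDs (interval -3.30 to 0.129), and Cyp21a1, Cyp11a1 and Cyp11b1 of corticosteroid synthesis by -1.14, -0.981 and 0.122 SDs. Of 4 adrenal cortex markers measured, limma called none and 3 were negative. Rank products called Mrap lower, against 2.32% of all probe sets. The list mean overlapped between the diets (6.838382 to 6.838405 on control and 6.838366 to 6.838389 on HP arrays).

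The retinoic acid hydroxylase Cyp26b1, which clears retinoic acid in developing and adult tissues, also had probe sets that disagreed. That of 1384392_at lay at -0.000402, -0.201, -1.03 and 1.23 SDs on control arrays and at 2.56, 0.987, 3.55 and 2.10 SDs on HP arrays. HP array 2 overlapped with the highest control array and the other HP arrays were above it. The difference was 2.30 SDs (interval 0.713 to 3.88, adjusted p = 0.124), with an exact permutation p of 0.0571. The other probe set, 1376667_at, differed by -0.231 SDs (interval -1.86 to 1.40), and Cyp26a1 by 0.191 SDs (-1.41 to 1.79).

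Among the sterol, bile acid and vitamin D 25-hydroxylases, Cyp27a1, the mitochondrial sterol 27-hydroxylase, had the smallest p, with 1.18 SDs and an interval of -0.656 to 3.02. Cyp46a1, which hydroxylates cholesterol, and Cyp39a1, which hydroxylates an oxysterol, differed by -0.703 and -0.697 SDs, and Cyp7a1, Cyp7b1 and Cyp8b1 of bile acid synthesis by 0.164, 0.0475 and 0.174 SDs. The family 3 enzymes, the main steroid and drug hydroxylases of liver and gut, were spread around 0, with Cyp3a2 at -1.06, Cyp3a9 at 1.03, Cyp3a18 at -0.125 and Cyp3a23-3a1 at 0.145 SDs. Cyp20a1, whose substrate is not settled, differed by 1.46 SDs (interval -0.189 to 3.10). None of these passed limma.

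The second test, the rank products of the study's methods, ranks probe sets by the size of the deposited difference. With an FDR under 0.05 it called 3 P450 probe sets higher (Cyp1b1, Cyp26b1 1384392_at and Cyp2u1) and 4 lower (Cyp2d2, Cyp1a1, Cyp4a1 and Cyp2c11), where it called 3.40% of all probe sets higher and 2.32% lower. Limma called only Cyp1b1 of these 7. All 7 were among the 12 P450 probe sets whose SD belonged to the top 10% over the array, the lowest of them at percentile 94.6. On HP against control arrays, the groups overlapped in Cyp1a1, Cyp4a1, Cyp2c11, Cyp2u1 and Cyp26b1. When values were put in SD units before ranking, Cyp1b1 stayed higher and Cyp2c7 was lower, and no other P450 probe set was called. After quantile normalization only Cyp1b1, Cyp26b1 and Cyp2c11 of the 7 were still called, beside Cyp4a3 as higher and Cyp20a1, Cyp4f1 and Cyp4a8 as lower. Cyp1a1 and Cyp4a1 were lost without control array 1 or 4, and Cyp2u1 without HP array 1, 2 or 3. Without control array 2, control array 3 or HP array 3, Cyp2c11 was called in both directions at once.

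**Figure D4:**
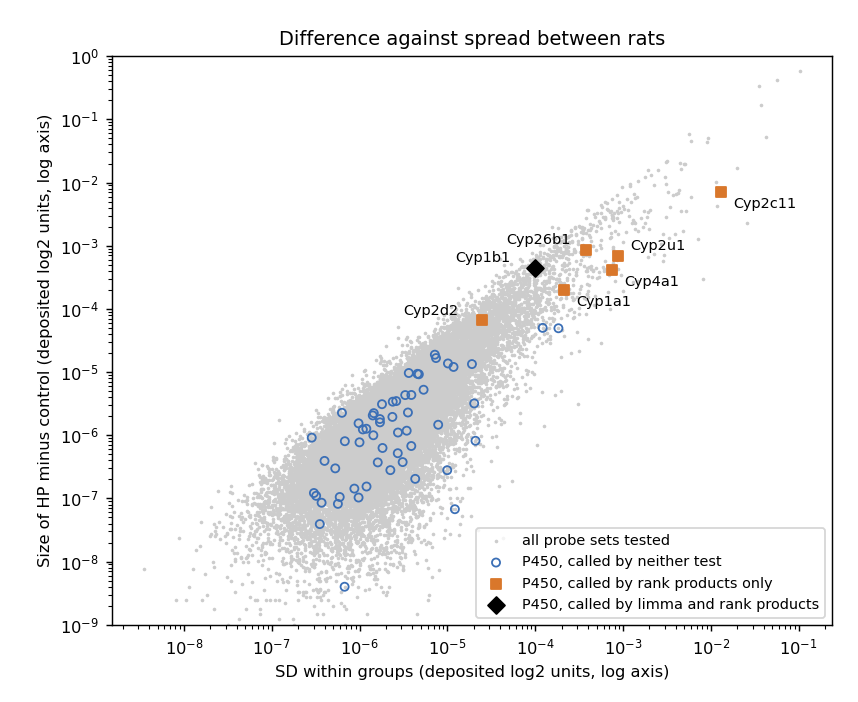
Size of the difference between the diets without its sign (vertical log axis) against the pooled SD within groups (horizontal log axis), both in deposited log2 units, for all probe sets tested (grey) and the 63 P450 probe sets (coloured by which test called them). The 7 rank product calls lie at the right among the probe sets of largest spread, and Cyp1b1 is the only one of them that limma also called.

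The partners of the P450 system were examined for the same arrays. The list of electron donors and other partners had 6 measured genes, Por, Cyb5a, Cyb5r3, Fdx1, Cyb5b and Pgrmc1. All 6 had negative differences with a median of -2.09 SDs, where 57.7% of all probe sets were negative. In 3 every HP array was below every control array, against 5.81% of all probe sets. Neither limma nor rank products called any of the 6. After quantile normalization all 6 were equal on both diets, which shows only that ranks were kept. Por, the reductase that supplies microsomal P450 enzymes, differed by -2.83 SDs (adjusted p = 0.0733), Cyb5a, cytochrome b5, by -1.92 SDs (0.269) and Cyb5r3, its reductase, by -2.55 SDs (0.304). Neither test called any of 16 receptors and factors that regulate P450 genes, and after Hnf4a the smallest p values were those of Nr1i3 (-1.25 SDs) and Foxa3 (1.05 SDs). Of 11 genes of haem supply and breakdown limma called none, with Hmox1, which breaks haem down, at 2.32 SDs, Alad at -1.43 SDs and Hmox2 at -1.42 SDs. Rank products called Hmox1 higher and Blvra (-1.34 SDs), which reduces the product of haem breakdown, lower, against 3.40% and 2.32% of all probe sets.

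Among other oxidation and conjugation enzymes few passed limma. Over all probe sets limma called 2.95% higher and 1.13% lower, and rank products 3.40% and 2.32%. Of 8 flavin and amine oxidases limma called none. Aox1 was nearest with 3.20 SDs (adjusted p = 0.0526), followed by Fmo1 (-1.57 SDs) and Xdh (1.55 SDs), while rank products called Fmo2 and Fmo4 lower. Of 18 conjugation enzymes limma called 1 lower, the sulphotransferase Sult2b1 (-3.63 SDs, adjusted p = 0.0369), and Ugt2b1 and Gsta4 differed by -3.26 and -2.48 SDs. Rank products called Sult2b1 lower and Gstm1 (1.11 SDs) higher. Of 12 eicosanoid enzymes outside the pattern of the rule, limma called 1 higher, the thromboxane synthase Tbxas1 (3.72 SDs, adjusted p = 0.0340), itself a P450 protein that carries another symbol. Pla2g4a, which releases arachidonic acid, and Ephx1, an epoxide hydrolase, differed by 2.97 and -2.36 SDs. Rank products called 5 of the 12 higher, Tbxas1 and Pla2g4a among them, and 4 lower, Ephx1 among them, against 3.40% and 2.32% of all probe sets.

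**Figure D5:**
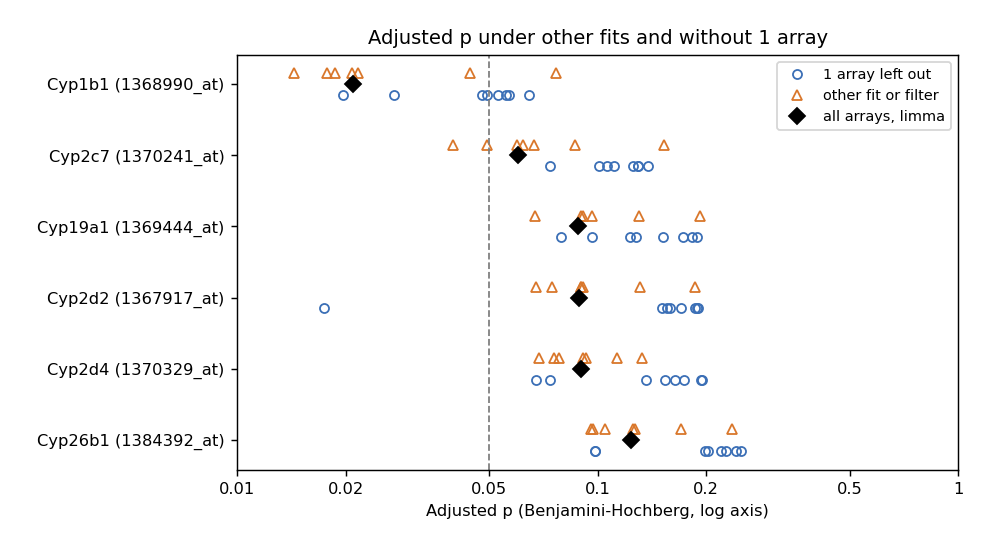
Adjusted p by limma (horizontal log axis) of 6 P450 probe sets with all arrays (diamonds), with 1 array left out (circles) and under other fits or filters (triangles), with the dashed line at 0.05; quantile normalization and centring on the array median are not drawn. Cyp1b1 lies on both sides of the line, from 0.0196 to 0.0646 without 1 array, and Cyp26b1 stays to the right of it throughout.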

How the data were processed

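Kidney RNA of 8 rats was measured on 8 arrays, 4 per diet. The deposited log2 values were made by the authors with the distribution free weighted method (DFW) over all arrays together; their log base is not given in the sources used here, and no further normalization was applied. Affymetrix controls (57 of 31099 probe sets) were left out. The other 31042 entered limma (version 3.58.1, R 4.3.3; lmFit, eBayes, prior degrees of freedom 0.772), with the Benjamini-Hochberg adjustment over all of them and a threshold of 0.05; every adjusted p comes from this fit unless another is named. Intervals of 95% use the moderated variance. Permutation tests were exact and two-sided, over 70 arrangements. Rank products followed the study's methods (16 pairs of arrays, 1000 permutations, FDR under 0.05, all 31099 probe sets). Other steps ran in Python 3.11.15 (scipy 1.17.1, numpy 2.4.6, matplotlib 3.10.9, pandas 2.3.3), and the scripts were tested on simulated data. The p-values of limma and of the permutation tests set a difference against the spread between the picked rats. The FDR of rank products comes from values permuted within arrays and does not use that spread. The precision stated holds for 4 picked rats per diet and for values that DFW drew together.

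Gene symbols come from the platform annotation of 2016 (20826 probe sets with 1 symbol, 436 with several, 9780 with none), and promoter sequences and gene neighbours from RefSeq on GRCr8, in which 44 of the 56 genes matched a promoter. Named with values are every P450 probe set called by either test, the 3 with the smallest p in each class, all other probe sets of a gene so named, and up to 3 genes of each related list; the remaining members are given by class and were added after their values were seen. The members and lists were chosen with earlier results of these data known. In a related list, each gene was represented by its brightest probe set. Alternatives were quantile normalization, centring on the array median or on the median deviation, limma with array weights, a replicate block, trend and robust moderation or no moderation, 1 probe set per gene, dropping the dimmest 25% of probe sets, and leaving out each array. Blood, urine and histology measurements were not analysed here.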

Additional observations from a re-analysis of the deposited data

Results flagged for a closer look

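Among the groups of 4 arrays of the named P450 probe sets, 62 were examined for 1 array far from the other 3, and 2 had such an array, where chance gives about 1 in 20. In Cyp20a1 (1378551_at), HP array 3 was the highest, with a gap to the next array of 0.901 of the range of the group. In Cyp39a1 (1385165_at), HP array 2 was the highest, with a gap of 0.880 of the range. Neither probe set was called by either test.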

How the results depend on the processing

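The count of P450 probe sets called higher by limma was 1 with all arrays, 0 with the replicate block, 0 with centring on the array median and 0 to 1 without 1 array. The count called lower was 0 with all arrays, 18 after quantile normalization, 1 after centring on the array median (Cyp2c11), 1 without the lowest 25% and 1 with 1 probe set per gene (Cyp2c7 in both), and 0 to 1 without 1 array (Cyp2d2, without HP array 3). Over all probe sets, quantile normalization gave 316 higher and 7712 lower calls, centring on the array median 78 and 19, and the replicate block 254 and 115. The labels do not say whether same-numbered arrays of the diets share more than a number, and the main fit treated them as unpaired. Their deviations correlated at 0.1213, 0.0887, 0.0626 and 0.00148. Control arrays 1 and 2 correlated most with the HP array of their own number, and control arrays 3 and 4 with HP arrays 4 and 1. Rank products called 7 P450 probe sets, 2 when probe sets were in SD units, 7 after quantile normalization (3 of them shared with the first 7) and 5 to 8 without 1 array. After centring on the array median, limma's prior variance was common to all probe sets, and the median difference over all was -6.13e-05, larger than most differences here; the cause of the other changes was not tested.

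Over all P450 probe sets, 36 of 63 differences were negative as deposited, 32 (with 6 positive and the others 0) after quantile normalization and 60 with centring on the array median. Among the probe sets named by rule, the differences in deposited log2 units that turned sign after quantile normalization were those of Cyp20a1 (-0.00037), Cyp4v3 1370889_at (1.09e-06), Cyp4f17 (-7.44e-05), Cyp27a1 (-0.000228) and Cyp26a1 (-0.000103). With centring on the array median, among the same probe sets, they were those of Cyp19a1 1379643_at (-5.77e-05), Cyp20a1 (-5.9e-05), Cyp4f17 (-5.67e-05), Cyp3a9 (-4.9e-05), Cyp27a1 (-6.02e-05), Cyp1a2 (-6.04e-05), Cyp26a1 (-6.05e-05) and Cyp4v3 1388127_at (-6.09e-05). Without 1 array, of the probe sets named by rule, the differences of Cyp26a1 (-4.6e-07 to 1.83e-06), Cyp1a2 (-1.39e-07 to 1.3e-06), Cyp4v3 1388127_at (-1.1e-07 to 4.24e-07), Cyp3a18 (-1.24e-06 to 8.4e-07) and Cyp26b1 1376667_at (-1.23e-06 to 5.04e-07) crossed 0. None of these was called with all arrays. With 4 arrays per diet the 95% intervals reached 1.58 to 2.73 SDs to either side (median 1.60). These widths do not allow for the adjustment over all probe sets, so larger shifts could also be missed. Cyp2c7 at -3.60 SDs (adjusted p by limma 0.0601) and Cyp4f6 at -3.21 SDs (0.196) were not called.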
